A study of Mus musculus with 20 samples.

Results

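The axon and tissue guidance genes described here comprised the Eph receptors, the ephrins, the semaphorins of classes 3 to 7, the plexins, the 2 neuropilins, the Robo receptors, the Slits, the netrins, Dcc and the Unc5 receptors. They were picked by gene symbol, as a set chosen with earlier results of these data known. Of the 20794 genes measured, 69 belonged to them. The array carried 152 probe sets for these 69 genes, and each gene was read from 1 of its probe sets, that of highest mean level across the 20 arrays. There were 34 receptors and 35 ligands. Mouse conceptuses of the outbred CD-1 strain were explanted from untreated dams at gestational day 8, kept in whole embryo culture for 24 h and collected at a stage labelled gestational day 9. During culture they were exposed to 100 µg/ml mono-2-ethylhexyl phthalate (MEHP, a metabolite of the plasticiser di-2-ethylhexyl phthalate) or to 0.01% dimethyl sulphoxide, the vehicle. RNA of the embryo and of the visceral yolk sac, the membrane that surrounds it, was measured separately on Affymetrix expression arrays. Each tissue had 3 arrays of MEHP-exposed conceptuses with a neural tube defect (NTD), 3 of MEHP-exposed conceptuses without one, 1 of a control with an NTD and 3 of controls without one. Below, "controls" are the vehicle-exposed conceptuses without an NTD, and a yolk sac "with NTD" is 1 whose embryo had the defect. The labels do not say whether an array held 1 conceptus or a pool, or from which litter, so p-values measure the spread between these samples, which may be technical.

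Eph receptors are receptor tyrosine kinases of the cell surface, and ephrins are their membrane-bound ligands, the A class tethered by a lipid anchor and the B class spanning the membrane. Contact between them usually makes cells separate or growing axons turn away, and signals can run into both cells. Class 3 semaphorins are secreted and act through neuropilins paired with plexins, and the other semaphorins are membrane-bound and mostly bind plexins directly. Slits are secreted ligands that repel through Robo receptors. Netrins attract through Dcc and repel through Unc5 receptors. In the early embryo these systems also mark segment and compartment borders, steer neural crest cells and shape blood vessels, and ephrin A5 and its receptors take part in fusion of the cranial neural folds.

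Values are log2 expression levels. Differences were tested with limma, and a gene was said to rise or fall at an adjusted p below 0.05, where the adjustment (Benjamini-Hochberg) ran over the 20794 genes. Levels of different genes are not compared, because probe sets differ in efficiency. The array's nonspecific probe sets, which match no mouse transcript, read 3.65 to 3.80 in MEHP-exposed embryos and 3.91 to 4.05 in control embryos, and 3.70 to 3.83 in MEHP-exposed yolk sacs and 3.87 to 4.08 in control yolk sacs. This level thus separated the MEHP-exposed from the control arrays without overlap. With it as a covariate no guidance gene passed, while some differences stayed near their size (Sema3d 0.60 beside 0.62 in embryos) and others were smaller (Sema3f -0.21 beside -0.39 in embryos). Exposure and this level cannot be told apart in these arrays. A list of 12 visceral endoderm genes averaged 5.36 to 7.68 in embryo arrays without NTD. MEHP replicate 3 (7.68) and control replicate 2 (7.25) lay above the rest, so these embryo arrays held more of the yolk sac's epithelial transcripts. MEHP-exposed embryos with NTD read 5.99, 6.90 and 6.44, above the other embryo arrays. The Gapdh 3′ to 5′ ratio, a measure of RNA integrity, was highest in control yolk sac replicates 1 and 2 (log2 ratios of 0.39 and 0.48), and embryo arrays reached 0.35 in replicate 1 of MEHP with NTD and 0.31 in control replicate 3.

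In embryos without NTD, MEHP exposure was accompanied by a higher level of 4 guidance genes and a lower level of 6. Robo2, a Slit receptor, and Sema3d, a secreted semaphorin, rose most, while Slit1, a ligand of Robo receptors, fell most. Over all genes 9.72% passed this comparison, 3.82% as higher and 5.9% as lower, and of the 69 guidance genes 14.5% passed. The median difference was 0.03 over the guidance genes and -0.04 over all genes, with 37 guidance genes positive and 32 negative. The members that passed came from most branches of the system. Among the 34 receptors, Robo2 and Ephb2 rose and Ephb1 fell. Among the 35 ligands, Sema3d and Efnb1 rose, and Slit1, Efna3, Sema3f, Sema6b and Sema6c fell. No plexin, neuropilin, netrin, Dcc or Unc5 gene and no Eph receptor of class A passed. In bulk tissue, fewer cells of a type and less RNA per cell cannot be told apart, and this holds for every difference given here.

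**Figure D1:**
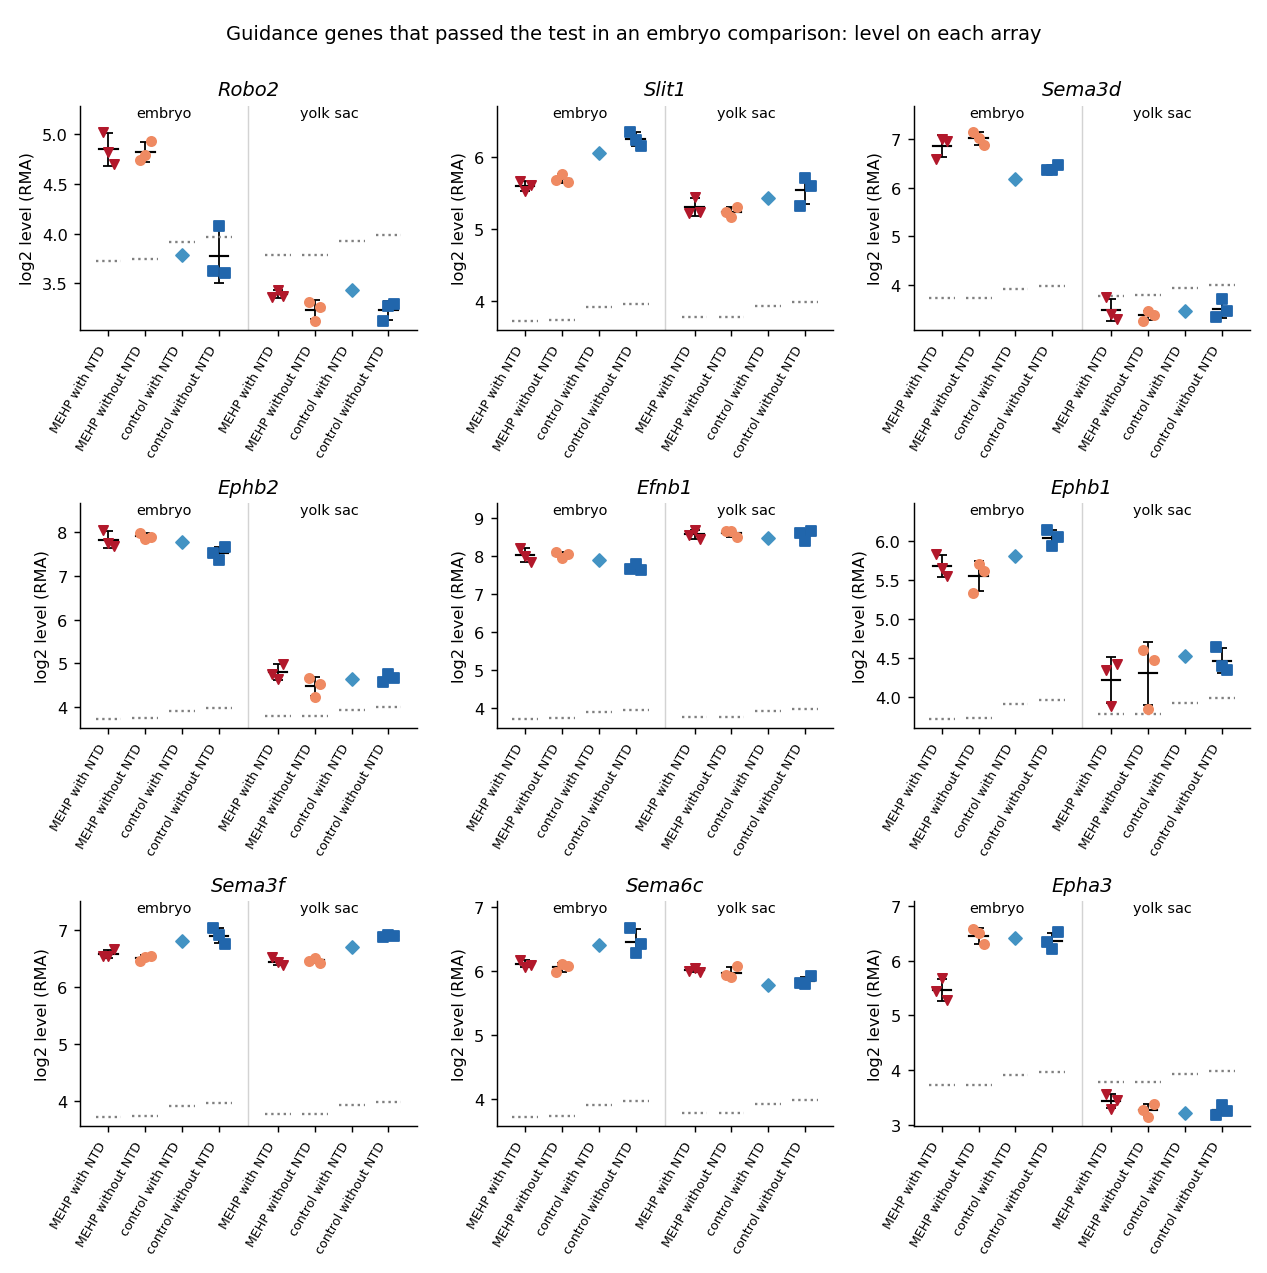
Log2 levels of 9 of the guidance genes that passed a test in embryos (Efna3 and Sema6b are not drawn), with embryo groups left of yolk sac groups (in each, MEHP with NTD, MEHP without NTD, control with NTD, control without NTD from left to right). Points are arrays, the bar is the group mean with SD, and the dotted grey line is the group's mean nonspecific level. For Robo2 all 6 MEHP-exposed embryo arrays lie above every control embryo array, and for Slit1 all 6 lie below.

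Robo2, a transmembrane receptor through which Slits repel axons, read 4.74, 4.79 and 4.93 in MEHP-exposed embryos without NTD and 3.63, 4.08 and 3.60 in control embryos. All exposed values lay above all control values, and the control values lay near the nonspecific level of the array. The difference was 1.05 ± 0.13 (SE, adjusted p = 0.00515 by limma), a 2.07-fold higher level. With the control values raised to the nonspecific level of their arrays, the level was at least 1.75-fold higher. Robo2 has 1 probe set on the array, so no other probe set could be set beside it. It passed whichever of the 6 compared arrays was left out. Without the 2 embryo arrays high in visceral endoderm transcripts the difference was 1.15 (adjusted p = 0.0103 by limma). With the nonspecific level as a covariate it was 0.82 and did not pass (adjusted p = 0.625 by limma).

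Slit1, a secreted repellent that the embryo makes chiefly in the nervous system, read 5.68, 5.77 and 5.65 in MEHP-exposed embryos without NTD and 6.35, 6.24 and 6.15 in control embryos. The groups did not overlap, and the control embryo with NTD, at 6.06, lay between them. The difference was -0.55 ± 0.08 (SE, adjusted p = 0.00684 by limma). Slit1 also passed whichever of the 6 compared arrays was left out, but not without both arrays high in visceral endoderm transcripts (-0.53, adjusted p = 0.0646 by limma). Robo2 and Slit1, a receptor and a ligand of 1 pathway, thus differed in opposite directions. The other Slits and Robos, Slit2, Slit3, Robo1, Robo3 and Robo4, did not pass.

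Among the semaphorins 1 rose and 3 fell. Sema3d, a secreted class 3 semaphorin known for guiding axons and for patterning vessels of the heart, read 7.14, 7.03 and 6.87 in MEHP-exposed embryos without NTD and 6.37, 6.37 and 6.46 in control embryos. The lowest exposed array was above the highest control array, and the difference was 0.62 ± 0.11 (SE, adjusted p = 0.0148 by limma). Its other probe set, with a mean of 4.12 over the embryo arrays, differed by 0.03. Sema3f, another secreted semaphorin, which acts through neuropilin 2, read 6.46, 6.54 and 6.55 in MEHP-exposed embryos without NTD and 7.04, 6.92 and 6.76 in control embryos. These groups did not overlap either, and the difference was -0.39 ± 0.08 (SE, adjusted p = 0.0218 by limma). The probe set read here is of a type that can match other transcripts, and the other Sema3f probe sets differed by -0.07 and -0.04.

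Sema6b and Sema6c are transmembrane semaphorins, and class 6 members are ligands of class A plexins. Sema6c read 5.98, 6.10 and 6.08 in MEHP-exposed embryos without NTD and 6.67, 6.28 and 6.42 in control embryos, a difference of -0.40 ± 0.10 (SE, adjusted p = 0.0314 by limma). Sema6b read 4.65, 4.61 and 4.66 in MEHP-exposed embryos without NTD and 5.16, 4.92 and 4.90 in control embryos, a difference of -0.36 ± 0.10 (SE, adjusted p = 0.0481 by limma). On the probe set read for each gene the groups did not overlap, although Sema6b stood less than 1 log2 unit above the nonspecific level in the exposed embryos.

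The Eph receptors of class B moved in both directions. Ephb2, a receptor of B ephrins that sets boundaries and steers commissural axons, read 7.99, 7.85 and 7.90 in MEHP-exposed embryos without NTD and 7.53, 7.36 and 7.66 in control embryos. All exposed arrays lay above all control arrays (0.40 ± 0.11, SE, adjusted p = 0.0484 by limma). Its other probe sets differed by -0.17 and -0.03, so the rise was seen by 1 of 3 probe sets. Ephb1, a close relative that turns retinal axons at the midline, read 5.33, 5.70 and 5.61 in MEHP-exposed embryos without NTD and 6.14, 5.94 and 6.06 in control embryos. Here all exposed arrays lay below all control arrays (-0.50 ± 0.11, SE, adjusted p = 0.0252 by limma). Ephb3, Ephb4 and Ephb6 did not pass.

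Of the ephrins, Efnb1 rose and Efna3 fell. Efnb1, a transmembrane ligand needed in the neural crest and skull, read 8.11, 7.97 and 8.08 in MEHP-exposed embryos without NTD and 7.66, 7.80 and 7.64 in control embryos. The groups did not overlap (0.35 ± 0.10, SE, adjusted p = 0.048 by limma), and its other probe sets differed by 0.16 and 0.05. Efna3, a lipid-anchored ligand, read 4.47, 4.49 and 4.70 in MEHP-exposed embryos without NTD and 5.18, 5.08 and 4.77 in control embryos. The groups came close without overlapping (-0.46 ± 0.11, SE, adjusted p = 0.031 by limma), and its other probe set differed by -0.13.

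These calls differed in how far they rested on single arrays. With each of the 6 compared arrays left out in turn, Sema3d passed in 4 of 6 fits, Ephb1 and Sema6c in 2, Ephb2, Efna3, Sema3f and Sema6b in 1 and Efnb1 in 0. The number of guidance genes that passed was 2 without MEHP replicate 1 or replicate 2, 3 without MEHP replicate 3 or control replicate 1, 6 without control replicate 2 and 10 without control replicate 3. For none of these 10 genes did the groups overlap, so leaving out an array could not change a sign. Here and elsewhere, genes were named by their p-value or difference on the same arrays. A lack of overlap thus adds nothing to the test, and its share over all genes was not counted. Without the 2 arrays high in visceral endoderm transcripts, Robo2 alone passed, with fewer samples. The differences of the other 9 genes were then 0.32 to 0.67 for those that rose and -0.58 to -0.40 for those that fell.

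Promoter sequence is shown for the guidance genes that rose in MEHP-exposed embryos, Robo2, Sema3d, Ephb2 and Efnb1, and for Epha3, which fell in embryos with NTD. Each is the 150 bases before an annotated start, 5′ to 3′ on the gene's strand, from RefSeq on build GRCm38.p6, with matches to CANNTG, the E-box letters, in capitals. Robo2 has 3 annotated starts on the minus strand of chromosome 16, at chr16:75447294-75447443, chr16:75092771-75092920 and chr16:74411826-74411975. The stretches of the others are at chr5:12383016-12383165 on the plus strand for Sema3d, chr4:136836013-136836162 on the minus strand for Ephb2, chrX:99135911-99136060 on the plus strand for Efnb1 and chr16:63864176-63864325 on the minus strand for Epha3.
Robo2 start 1: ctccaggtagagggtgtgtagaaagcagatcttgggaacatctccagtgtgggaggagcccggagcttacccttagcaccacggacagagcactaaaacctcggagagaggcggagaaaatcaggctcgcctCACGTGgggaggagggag
Robo2 start 2: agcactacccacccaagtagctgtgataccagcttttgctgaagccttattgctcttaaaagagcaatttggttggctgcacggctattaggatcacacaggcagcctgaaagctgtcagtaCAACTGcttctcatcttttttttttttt
Robo2 start 3: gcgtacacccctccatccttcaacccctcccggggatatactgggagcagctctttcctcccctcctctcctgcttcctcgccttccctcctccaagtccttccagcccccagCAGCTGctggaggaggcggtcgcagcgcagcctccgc
Sema3d: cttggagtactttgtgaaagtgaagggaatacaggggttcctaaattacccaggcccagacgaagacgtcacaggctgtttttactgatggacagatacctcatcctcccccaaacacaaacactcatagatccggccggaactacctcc
Ephb2: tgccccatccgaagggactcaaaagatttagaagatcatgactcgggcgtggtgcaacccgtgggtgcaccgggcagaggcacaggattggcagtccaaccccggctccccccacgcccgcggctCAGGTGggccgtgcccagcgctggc
Efnb1: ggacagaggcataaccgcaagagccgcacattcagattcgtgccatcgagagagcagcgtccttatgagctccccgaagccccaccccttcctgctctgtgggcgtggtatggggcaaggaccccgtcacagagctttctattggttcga
Epha3: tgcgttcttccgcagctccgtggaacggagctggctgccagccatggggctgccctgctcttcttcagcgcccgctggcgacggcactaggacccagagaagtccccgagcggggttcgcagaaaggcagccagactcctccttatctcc
Each of the 3 Robo2 stretches held 1 CANNTG match, each with other middle letters, and Ephb2 held 1. The Sema3d, Efnb1 and Epha3 stretches held 0, although Sema3d held 3 in the 250 bases before its start. Over the 250 bases before each start, 59 of the 69 guidance genes had a sequence, with 75 starts in all. In that window CANNTG was found in 48% of these 75 promoters and in 66.2% of all 32851 promoters. GGGCGG, the GC-box letters, was found in 70.7% and 32.7%, AGGTCA, the letters of a nuclear receptor half-site, in 14.7% and 14%, and TATAAA in 2.67% and 12.4%, all read on both strands. None of the 7 promoters shown held any of these last 3 motifs in its 250 bases. The median GC content of the window was 64.4% for the guidance genes and 52.4% for all promoters. A match is a run of letters and not a bound site.

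MEHP-exposed embryos with NTD were set against the same 3 control embryos, so this comparison and the one without NTD share their controls. Robo2 and Sema3d were again higher and Slit1 and Sema3f again lower, and Epha3, an ephrin A receptor, was lower as well. Of the 69 guidance genes 2 rose and 3 fell, 7.25%, and over all genes 7.45% passed, 3.21% as higher and 4.24% as lower. The median difference was 0.01 over the guidance genes and -0.05 over all genes. Robo2 read 5.03, 4.82 and 4.70 in MEHP-exposed embryos with NTD, above the controls given earlier in every array (1.08, adjusted p = 0.00499 by limma, at least 1.78-fold higher). Slit1 read 5.66, 5.52 and 5.61 in MEHP-exposed embryos with NTD, below every control array (-0.65, adjusted p = 0.00431 by limma). Both passed whichever of the 6 arrays was left out. Without the 2 embryo arrays high in visceral endoderm transcripts, Robo2, Epha3 and Slit1 passed. That fit did not even out this list. The exposed arrays with NTD averaged 5.99 to 6.90 and the control embryos left 5.36 and 5.50.

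Sema3d read 6.58, 7.0 and 6.97 in MEHP-exposed embryos with NTD, of which replicate 1 lay nearest the controls (0.45, adjusted p = 0.0407 by limma). Sema3f read 6.54, 6.54 and 6.67 in the same embryos, below every control array (-0.32, adjusted p = 0.0421 by limma). With arrays left out in turn, Sema3d passed in 2 of 6 fits and Sema3f in 1. The other 6 genes that passed without NTD kept their sign in embryos with NTD and did not pass. Efnb1 differed by 0.33 (adjusted p = 0.0639 by limma), Ephb2 by 0.31 (0.0997), Ephb1 by -0.36 (0.0685), Sema6c by -0.35 (0.0553), Efna3 by -0.33 (0.087) and Sema6b by -0.30 (0.0895). None of these 10 genes passed between exposed embryos with and without the defect.

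**Figure D2:**
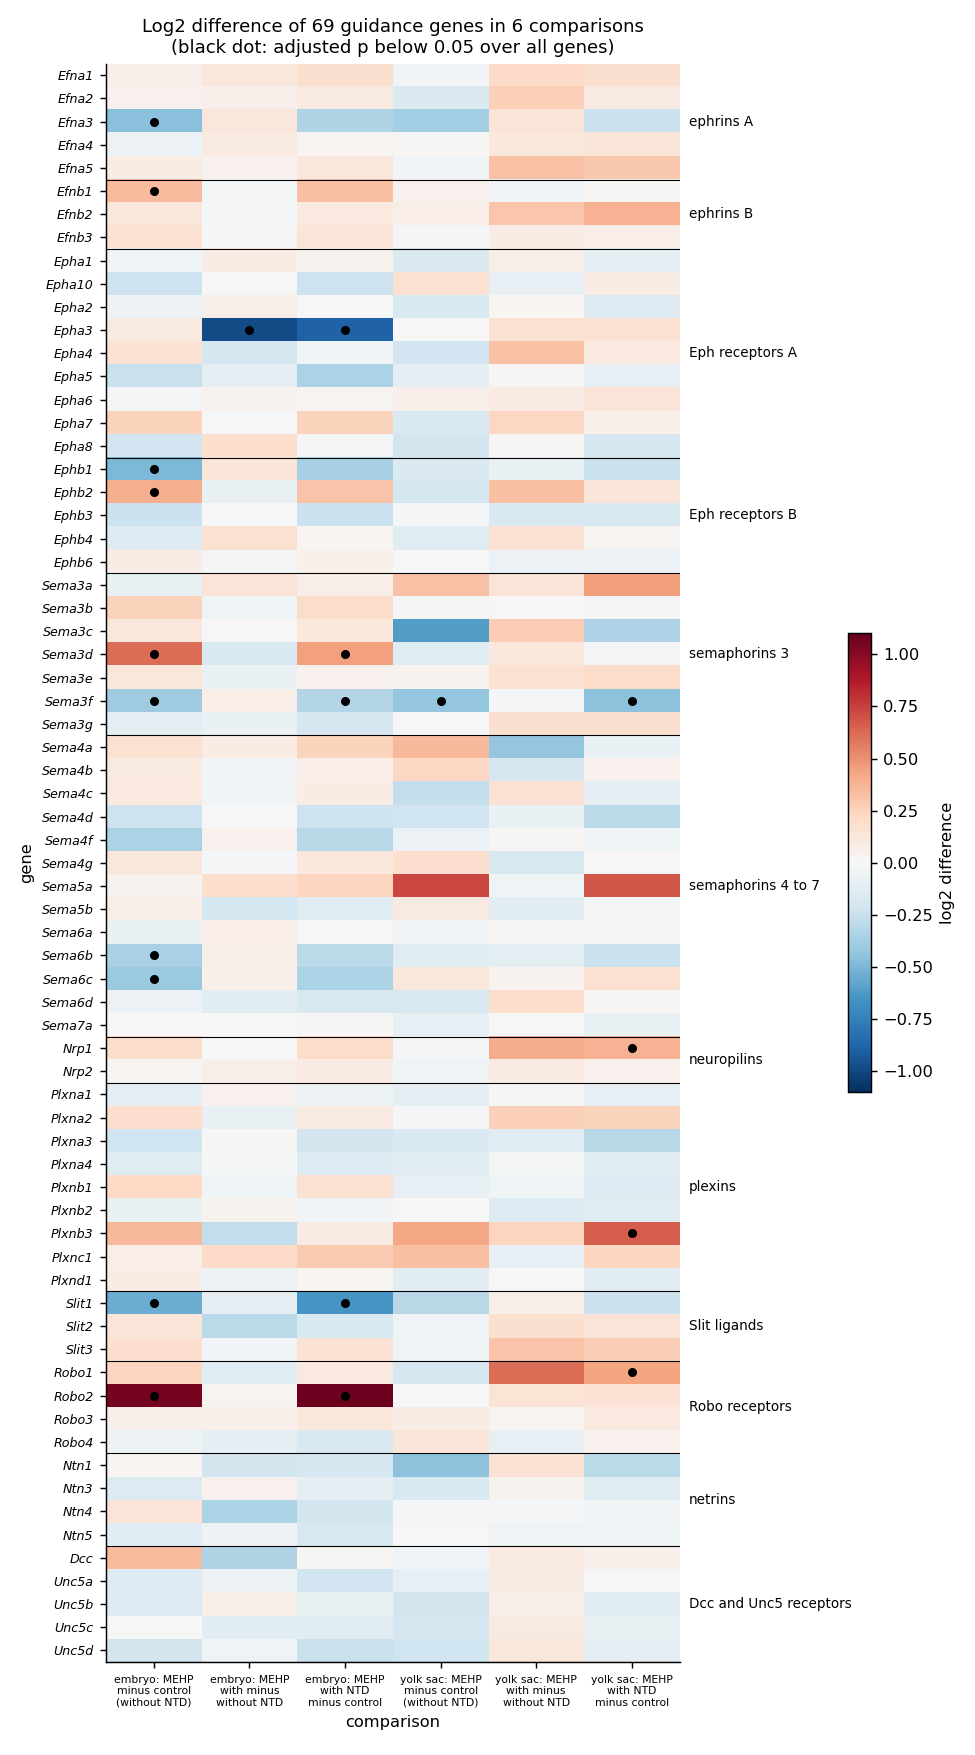
Log2 differences of all 69 guidance genes in the within-tissue comparisons, each as the group named first minus the group it is set against, in rows grouped by family. Red is higher and blue lower in the group named first, and a black dot marks an adjusted p below 0.05. Robo2 and Slit1 stand out in both comparisons of MEHP-exposed embryos with control embryos, and Epha3 in both comparisons of embryos with NTD.

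Among MEHP-exposed embryos, those with NTD differed from those without in 1 guidance gene, Epha3. Epha3 is a receptor of A ephrins, and background work places it in motor axon guidance and in endocardial cushions of the heart. Over all genes 0.024% passed this comparison, 0.00962% as higher and 0.0144% as lower, and of the 69 guidance genes 1.45% passed, 0 higher and 1 lower. The median difference was -0.01 over the guidance genes. Epha3 read 5.45, 5.68 and 5.28 in MEHP-exposed embryos with NTD, against 6.58, 6.50 and 6.30 in MEHP-exposed embryos without NTD. The groups were separated by a gap, and the control embryo with NTD, at 6.41, and the control embryos, at 6.34, 6.22 and 6.52, all lay above the exposed arrays with NTD. The difference was -0.99 ± 0.12 (SE, adjusted p = 0.0441 by limma), a level 0.505 times that of exposed embryos without NTD. Against control embryos it was -0.89 (adjusted p = 0.00686 by limma), which passed whichever array was left out. Its 3 other probe sets differed from control embryos by -0.17, -0.09 and -0.07, and over the mean of all 4 the difference was -0.31 and did not pass (adjusted p = 0.0591 by limma). The difference between exposed embryos passed in 1 of 6 such fits, the one without replicate 2 of MEHP with NTD (adjusted p = 0.0286 by limma), and in the other 5 the adjusted p was 0.0797 to 0.233. Between exposed embryos the other probe sets differed by -0.73, -0.28 and -0.01, and the mean of all 4 by -0.50 (adjusted p = 0.218 by limma). In embryo arrays these probe sets, in that order, read 4.44 to 5.82, 3.53 to 4.06 and 3.03 to 3.25. The 2 lower ranges lie under or near the nonspecific level, so both means take in values that could hardly fall.

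The genes with the next largest differences between exposed embryos with and without NTD did not pass. Ntn4, a netrin of basement membranes, read 4.71, 4.62 and 4.60 in MEHP-exposed embryos with NTD, against 4.84, 5.03 and 5.09 in those without (-0.34, adjusted p = 0.409 by limma). Its arrays did not overlap. Dcc, the netrin receptor, differed by -0.33 (adjusted p = 0.898), Slit2 by -0.30 (0.807), Plxnb3, a receptor of semaphorin 5A, by -0.27 (0.938), and Plxnc1, the receptor of semaphorin 7A, by 0.21 (0.911). Plxnb3 and Plxnc1 overlapped between the groups, and Dcc and Slit2 did not.

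The level of Epha3 followed that of neuronal genes over the embryo arrays. A list of 24 neuronal differentiation genes averaged 5.92, 6.06 and 5.99 in MEHP-exposed embryos with NTD, against 6.69, 6.57 and 6.43 in MEHP-exposed embryos without NTD. The control embryo with NTD read 6.59 and the control embryos 6.34 to 6.41, so only the exposed embryos with NTD were low. Of the 24 genes, 23 had a negative difference between exposed embryos with and without NTD, with a median of -0.50, and 1 passed, Lhx9, a LIM homeobox factor of interneurons (-1.72). Against control embryos 9 of the 24 fell, 37.5%, beside 4.24% of all genes. The list was chosen with earlier results of these data known, so these counts describe it and are no test. Between exposed embryos all 12 neural progenitor genes had a negative difference too, with a median of -0.10. All 12 cardiac muscle genes had a positive one, with a median of 0.35. The 12 neural crest and head mesenchyme genes were split, 6 positive and 6 negative, with a median of -0.02. Of these 1 passed, Prrx1 (-0.60). Over all genes that comparison had 10312 positive and 10482 negative differences. The part of these lists in the Epha3 difference was not tested.

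As a description over the 10 embryo arrays, which share their groups, the guidance genes most like Epha3 by Pearson's correlation were Sema5b (0.71), Ntn4 (0.69), Ntn1 (0.66), Slit1 (0.51) and Unc5d (0.49). The other genes most like it were Nefl (0.95), a neurofilament gene, Pantr1 (0.95), Prkar2a (0.95), Nhlh2 (0.94), a helix-loop-helix factor of young neurons, and Aph1b (0.93). Nefl and Nhlh2 belong to the neuronal list above.

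**Figure D3:**
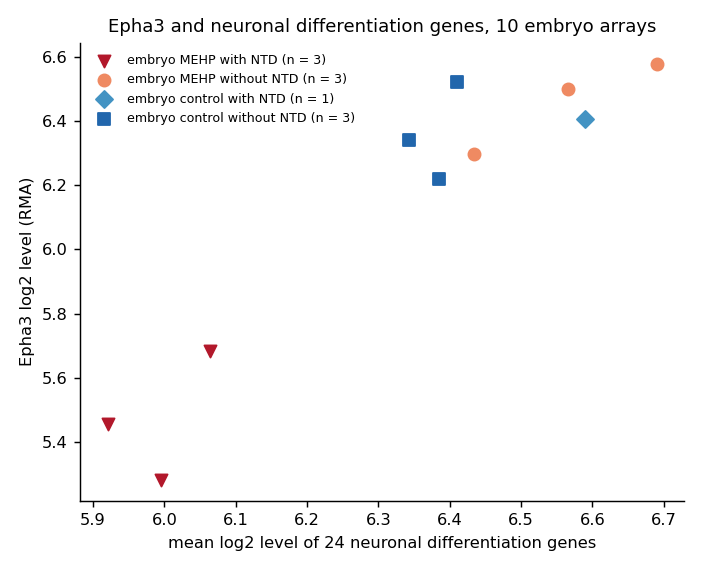
Log2 level of Epha3 against the mean log2 level of 24 neuronal differentiation genes in the 10 embryo arrays. The 3 MEHP-exposed arrays with NTD lie apart at Epha3 levels of 5.28 to 5.68 and list means of 5.92 to 6.06, and the other 7 arrays lie above both.

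In yolk sacs without NTD, 1 guidance gene passed, Sema3f, which was lower after MEHP. Over all genes 0.313% passed, 0.192% as higher and 0.12% as lower, and of the guidance genes 1.45%. The median difference was -0.04 over the guidance genes and -0.02 over all genes, with 21 guidance genes positive and 48 negative. Among all genes 8940 differences were positive and 11854 negative. Sema3f read 6.47, 6.52 and 6.43 in MEHP-exposed yolk sacs without NTD and 6.88, 6.92 and 6.89 in control yolk sacs. The arrays of each group lay within 0.1 of each other and the groups were far apart beside that spread (-0.43 ± 0.06, SE, adjusted p = 0.028 by limma). Its other probe sets differed by -0.18 and -0.02. Sema3f did not pass with any array left out (adjusted p of 0.0581 to 0.114), nor without the arrays of high Gapdh 3′ to 5′ ratio, which left 1 control yolk sac, taken to vary like the other groups (-0.45, adjusted p = 0.441 by limma).

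The larger differences in yolk sacs without NTD belonged to genes that did not pass. Sema5a, a membrane semaphorin and ligand of plexin B3, read 5.22, 5.55 and 5.29 in MEHP-exposed yolk sacs without NTD and 4.90, 4.50 and 4.46 in control yolk sacs (0.73 ± 0.17, SE, adjusted p = 0.0838 by limma). Plxnb3, its receptor, read 5.0, 5.50 and 5.25 in the same exposed yolk sacs and 4.70, 5.11 and 4.67 in control yolk sacs (0.43, adjusted p = 0.191 by limma). Sema5a did not overlap between groups, while Plxnb3 did. Sema3c differed by -0.62 ± 0.25 (SE, adjusted p = 0.252), with 2 of its 3 exposed arrays (3.90, 3.26 and 3.72) under the nonspecific level of their array, Ntn1 by -0.45 ± 0.12 (SE, adjusted p = 0.106) and Efna3 by -0.37 (adjusted p = 0.128), all by limma. Slit1, which fell in embryos, differed by -0.31 in yolk sacs (adjusted p = 0.179 by limma).

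Among MEHP-exposed yolk sacs, those of embryos with NTD and those without differed in 0 guidance genes and 0 genes in all (0%) after adjustment by limma. At an unadjusted p below 0.05 limma gave 1222 genes higher and 780 lower over all genes. Of the guidance genes 47 had a positive difference and 22 a negative one, with a median of 0.07, beside 0.01 over all genes. Among all genes 11377 differences were positive and 9417 negative. Robo1, a Slit receptor that is also made by vessels, read 7.57, 7.60 and 7.60 in MEHP-exposed yolk sacs with NTD, against 7.09, 6.93 and 6.91 in those without (0.61 ± 0.09, SE, adjusted p = 0.0878 by limma). Nrp1, the co-receptor of class 3 semaphorins and of vascular endothelial growth factor, read 10.52, 10.63 and 10.66 with NTD, against 10.13, 10.25 and 10.22 without (0.40 ± 0.06, SE, adjusted p = 0.102 by limma). Neither gene overlapped between groups, and neither passed.

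Sema4a, a membrane semaphorin, read 9.26, 9.16 and 8.98 in MEHP-exposed yolk sacs with NTD, against 9.60, 9.38 and 9.70 in those without (-0.43, adjusted p = 0.507 by limma). The remaining named differences were 0.33 for Ephb2 (adjusted p = 0.414), 0.33 for Efna5 (0.416) and 0.32 for Epha4 (0.393), an Eph receptor that binds both ephrin classes. Genes of some cell type lists mostly differed in 1 direction with NTD in the same yolk sacs. All 12 visceral endoderm genes had a negative difference, with list means of 12.25 to 12.37 with NTD, against 12.46 to 12.52 without, and 11 of 12 endothelial genes a positive one, with list means of 7.36 to 7.52 with NTD, against 7.18 to 7.41 without. All 10 primitive erythroid genes were positive, with a median of 0.24 and a median SE of 0.27. Their list means overlapped, at 8.94 to 9.73 with NTD and 8.86 to 9.47 without. The part of these lists in the Robo1 and Nrp1 values was not tested.

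Set against control yolk sacs, MEHP-exposed yolk sacs with NTD had 3 guidance genes higher and 1 lower. This is 5.8% of the guidance genes, and 2.38% of all genes passed, 1.4% as higher and 0.976% as lower. Nrp1, Robo1 and Plxnb3, all receptors, rose, and Sema3f fell. The 3 Nrp1 values with NTD, given above, all exceeded the 10.26, 10.17 and 10.22 of control yolk sacs (0.38 ± 0.06, SE, adjusted p = 0.0277 by limma). Its other probe sets differed by 0.17, 0.44 and 0.36. Those of Robo1 exceeded the 7.37, 7.07 and 7.04 of control yolk sacs (0.43 ± 0.09, SE, adjusted p = 0.0416 by limma), and its other probe set differed by 0.00. Plxnb3 read 5.64, 5.34 and 5.50 in MEHP-exposed yolk sacs with NTD (0.67 ± 0.15, SE, adjusted p = 0.0488 by limma), above the control arrays given earlier, and its other probe set differed by -0.14.

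Sema3f read 6.52, 6.44 and 6.39 in MEHP-exposed yolk sacs with NTD, again below every control array (-0.45 ± 0.06, SE, adjusted p = 0.0147 by limma). Its other probe sets differed by -0.22 and -0.05. With each of the 6 arrays left out in turn, Sema3f passed in 3 fits, Nrp1 in 2, Robo1 in 1 and Plxnb3 in 0. The count of 4 guidance genes became 0 without control replicate 2, control replicate 3 or replicate 3 of MEHP with NTD, 1 without replicate 2 of MEHP with NTD and 3 without control replicate 1. Without the arrays of high Gapdh 3′ to 5′ ratio, which left 1 control array, 0 passed, with differences of 0.38 for Nrp1, -0.44 for Sema3f, 0.55 for Robo1 and 0.82 for Plxnb3. Sema5a (0.69, adjusted p = 0.06) and Sema3a (0.46, adjusted p = 0.0794) did not pass by limma.

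**Figure D4:**
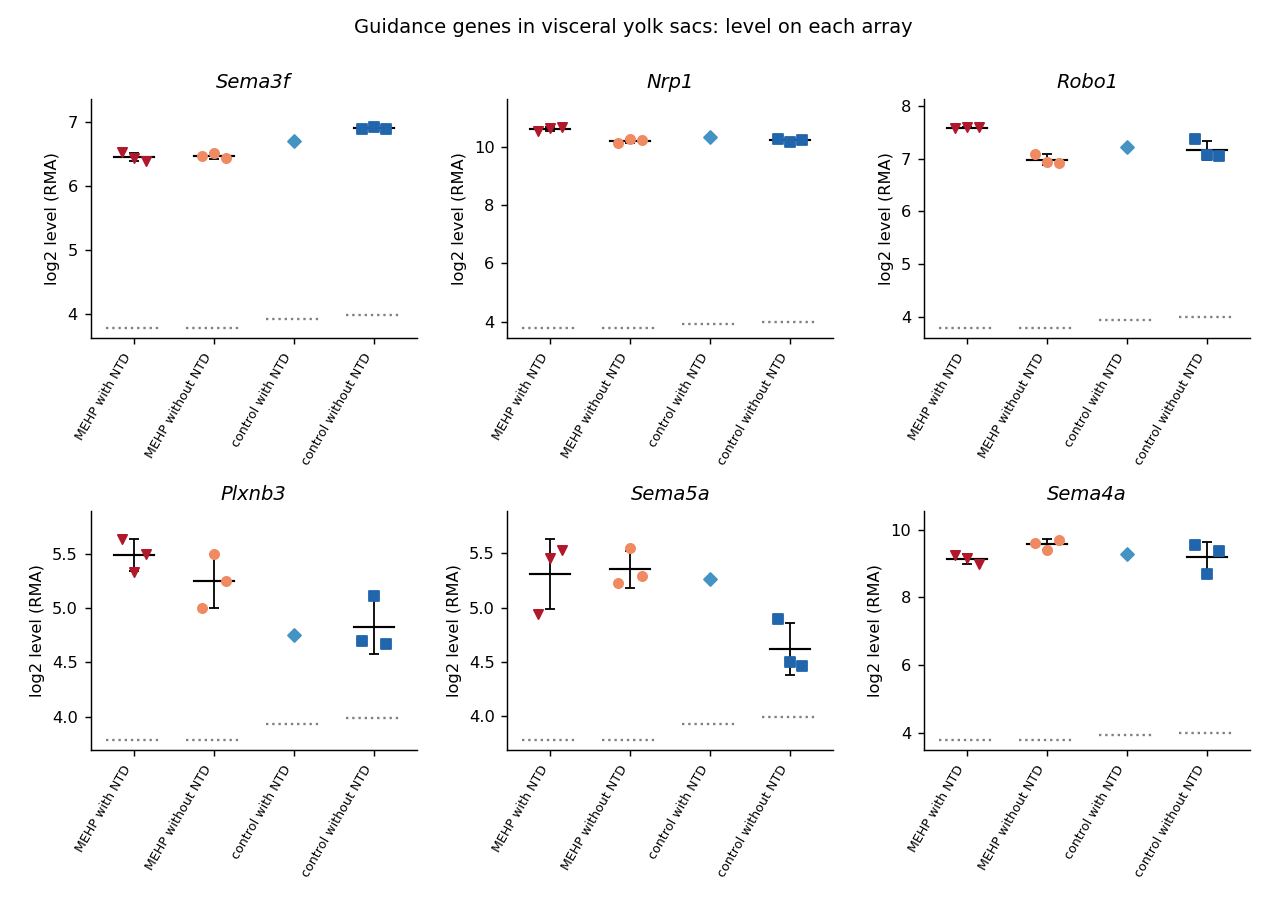
Log2 levels of the guidance genes with the results named for yolk sacs, by group (MEHP with NTD, MEHP without NTD, control with NTD, control without NTD from left to right). Points are arrays, the bar is the group mean with SD, and the dotted grey line is the group's mean nonspecific level. Sema3f lies lower in all 6 MEHP-exposed arrays than in the control arrays, and Nrp1 is highest in the 3 arrays with NTD.

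The difference between tissues was tested for both effects in a fit of all 20 arrays. The MEHP effect without NTD differed between embryo and yolk sac for 1 guidance gene, Robo2, in which it was higher in the embryo, beside 0.0769% of all genes in either direction and 0.0289% as higher. Robo2 differed by 1.05 in the embryo and by 0.01 in the yolk sac, where the adjusted p was 0.979 by limma, and the difference of these effects was 1.05 ± 0.16 (SE, adjusted p = 0.0207 by limma). In yolk sacs Robo2 read 3.32, 3.12 and 3.26 after MEHP without NTD and 3.12, 3.27 and 3.30 in controls, all under the nonspecific level, so a change in yolk sacs was not detectable on these arrays. Sema3d (0.75, adjusted p = 0.127) and Sema6c (-0.53, adjusted p = 0.098) did not pass by limma, and for Slit1 the difference of effects was -0.24 (adjusted p = 0.444 by limma).

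The NTD difference among exposed conceptuses differed between tissues for Epha3 alone among the guidance genes, beside 0.0144% of all genes. It was -0.99 in the embryo and 0.17 in the yolk sac, where the adjusted p was 0.598 by limma, and the difference of these was -1.15 ± 0.16 (SE, adjusted p = 0.0137 by limma). Epha3 also read under the nonspecific level in yolk sacs, at 3.56, 3.29 and 3.45 with NTD, against 3.28, 3.15 and 3.39 without. Robo1 had differences of opposite sign in the tissues, and its difference of effects did not pass (-0.74, adjusted p = 0.168 by limma). With each of the 12 compared arrays left out in turn, Robo2 passed in 5 fits (adjusted p of 0.000522 to 0.0719) and Epha3 in 8 (0.00421 to 0.0759).

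Between control embryos and control yolk sacs most guidance genes differed. Of the 69, 37 were higher in embryos and 15 lower, 75.4%, beside 51.3% of all genes (28.4% higher and 22.8% lower), and the median difference was 0.35 over the guidance genes and 0.03 over all genes. The genes furthest above the yolk sac level in embryos were Ntn1, the netrin of the floor plate, which averaged 9.29 ± 0.08 in embryos and 4.88 ± 0.14 in yolk sacs (SD, n = 3 each, difference 4.41, adjusted p = 1.39e-15 by limma), and Epha7, an ephrin A receptor, at 8.56 ± 0.01 and 4.56 ± 0.18 (4.01, adjusted p = 8.09e-15 by limma). Epha3 averaged 6.36 ± 0.15 in embryos and 3.27 ± 0.09 in yolk sacs, at least 5.17-fold higher with the yolk sac values raised to the nonspecific level, and Sema3d 6.40 ± 0.05 and 3.51 ± 0.19, at least 5.31-fold higher. Sema3c (3.07), Sema3a (2.94), Ephb2 (2.85), Efnb2 (2.22), Efna5 (2.13), Efna2 (2.11), Robo1 (2.03) and Efnb3 (1.99) followed, as log2 differences of embryo minus yolk sac.

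The guidance genes that were lower in embryos than in yolk sacs included both neuropilins. Sema4a averaged 4.58 ± 0.34 in embryos and 9.2 ± 0.44 in yolk sacs (SD, n = 3 each, difference -4.63, adjusted p = 6e-12 by limma), the largest difference of any guidance gene in either direction. The others named were Sema4b (-1.13), Plxnb2 (-1.12), a receptor of class 4 semaphorins, Sema3b (-1.11), Sema4g (-1.02), Epha1 (-0.90), Efnb1 (-0.87), Epha2 (-0.67), Robo4 (-0.66), the Robo of endothelium, Nrp2 (-0.61), Sema3g (-0.60) and Nrp1 (-0.58). By family, 4 of 5 Eph receptors of class B, 4 of 5 A ephrins and 3 of 4 netrins were higher in embryos and none of these families had a member lower. Eph receptors of class A had 5 higher and 2 lower of 9, B ephrins 2 and 1 of 3, class 3 semaphorins 3 and 2 of 7, the other semaphorins 6 and 4 of 13, plexins 4 and 1 of 9, Robo receptors 2 and 1 of 4, Slits 2 and 1 of 3, and Dcc and Unc5 receptors 2 and 1 of 5.

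**Figure D5:**
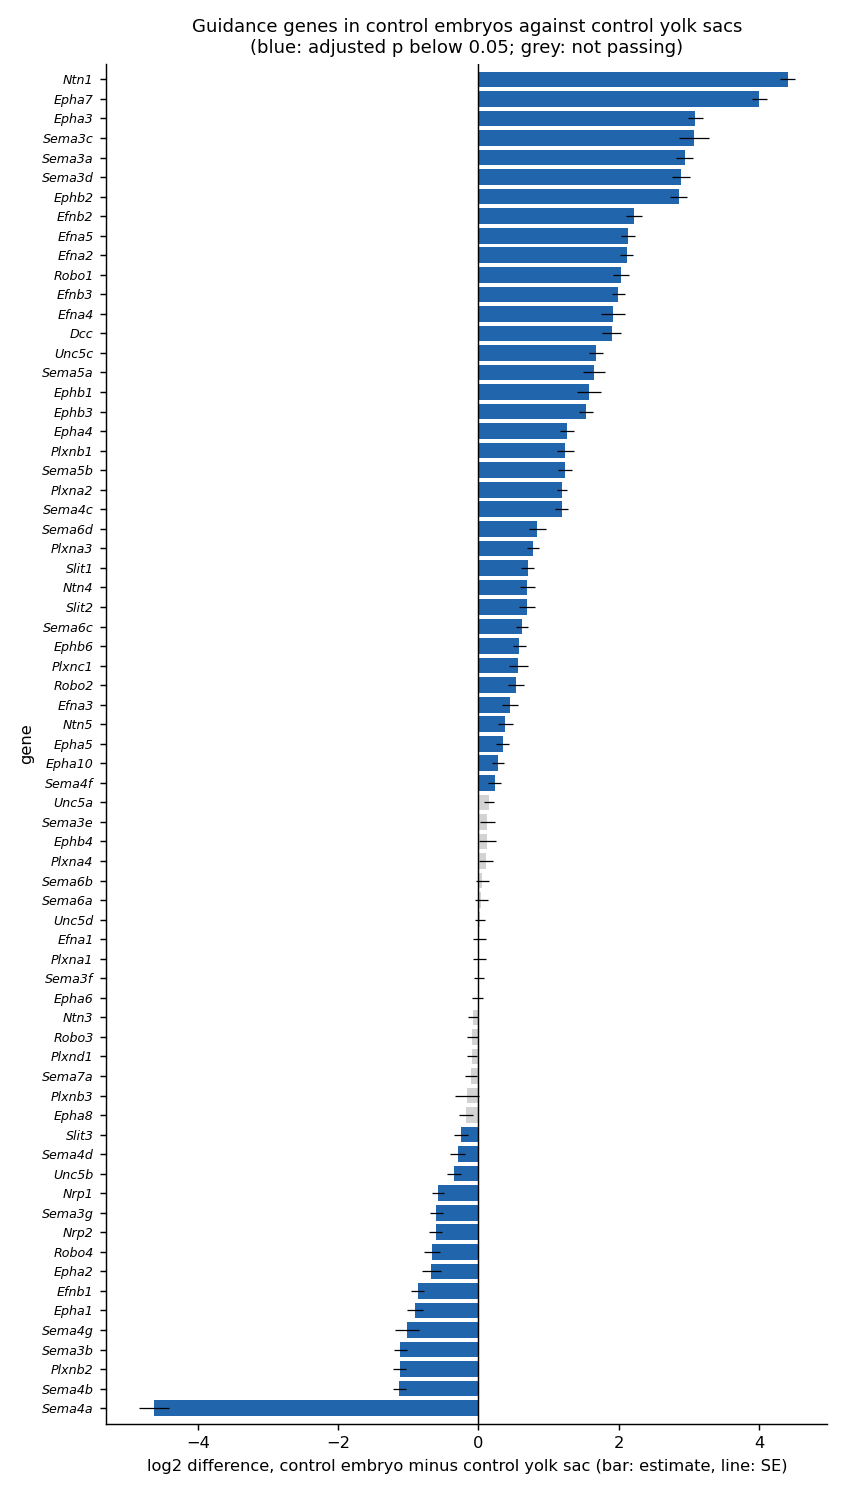
Log2 difference of each of the 69 guidance genes between control embryos and control yolk sacs (embryo minus yolk sac). Bars are limma estimates with SE as lines, blue where the adjusted p was below 0.05 and grey otherwise. Ntn1 (4.41) and Epha7 (4.01) stand highest in embryos, and Sema4a (-4.63) is far below the other genes that were lower in embryos.

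In control embryos 5 guidance genes, Epha6, Ntn3, Robo2, Robo3 and Unc5d, averaged no more than the highest nonspecific level, 4.05. In control yolk sacs 10 did at a level of 4.08, the same 5 with Dcc, Epha3, Epha5, Ephb6 and Sema3d. One member of each family is given here with its level, the one whose probe set read highest, which does not rank the genes' expression. In control embryos these were Epha7 (8.56), Ephb3 (7.86), Efna5 (9.10), Efnb2 (10.01), Sema3a (7.51) for class 3 and Sema4c (8.52) for the other semaphorins, Plxnb2 (9.0), Nrp1 (9.64), Robo1 (9.19), Slit2 (8.77), Ntn1 (9.29) and Unc5c (7.98). In control yolk sacs they were Epha2 (6.77), Ephb4 (7.32), the partner of ephrin B2 in veins, Efna5 (6.97), Efnb1 (8.57), Sema3f (6.90), Sema4a (9.2), Plxnb2 (10.12), Nrp1 (10.22), Robo1 (7.16), Slit2 (8.08), Ntn1 (4.88) and Unc5b (7.80), the Unc5 receptor of vessels. The replicates of a group agreed closely, with a median SD over the guidance genes of 0.0954 to 0.139.

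Genes that act beside or below these receptors were counted from lists outside the 69. Of 63 signalling genes, such as the kinases, adaptors and exchange factors of Eph, plexin and Robo receptors, 6.35% passed in embryos without NTD. Rock1, a kinase of the actin cytoskeleton (0.37), and Yes1, a Src family kinase (0.50), rose, and Tiam2, a Rac exchange factor (-0.45), and Mical2, an actin oxidase (-0.38), fell. In MEHP-exposed embryos with NTD against control embryos 4.76% passed, with Rock1 (0.45) and Wasl, an actin nucleation factor (0.33), higher and Srgap3, a Robo-binding GTPase activator (-0.41), lower. These shares lie under the 9.72% and 7.45% of all genes.

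Of 32 other guidance cues and receptors 15.6% passed in embryos without NTD, beside 9.72% of all genes. Sdc1, a heparan sulphate proteoglycan, rose (0.32), while its relative Sdc3 (-0.38) and the adhesion molecules Cntn2 (-0.30), Dscam (-0.29) and Chl1 (-0.29) fell. In MEHP-exposed embryos with NTD against control embryos 9.38% passed, beside 7.45% of all genes, with Sdc1 higher and Boc, a hedgehog co-receptor of commissural axons (-0.36), and Sdc3 (-0.26) lower. Neither list had a gene that passed between exposed embryos with and without NTD or in any of the 3 yolk sac comparisons within the tissue.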

How the data were processed

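RNA of embryos and visceral yolk sacs was measured on 20 Affymetrix arrays. The authors deposited log2 levels made by RMA, a background correction, normalisation and probe set summary, and the submitters' processing notes also name limma and R 2.15.1; the RMA settings are not given in the sources used here. RMA compresses differences near background, so fold changes of dim genes are understated. The authors' deposited comparison tables give log2 differences and adjusted p-values (FDR) per the file headers. Raw intensity files were not used here.

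The array columns carry no sample name. Arrays were assigned to tissue, exposure and NTD status through the authors' 4 deposited comparison tables: the class means of the assignment used equal the deposited log2 differences to within 6.4e-15, against errors of 0.873 or more for the next best split. The sample headings of the deposited value table would place 13 of the 20 arrays in another group and 8 in another tissue, and were tried as an alternative. Array numbers are names only.

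After 104 control probe sets and 6670 without a gene symbol were left out, each gene was read from its probe set with the highest mean, and 3025 symbols were updated through Entrez identifiers. The 69 guidance genes and all gene lists were chosen with earlier results of these data known. limma 3.58.1 in R 4.3.3 was fitted with 1 mean per group on the 10 arrays of a tissue, or on all 20 for differences between tissues, in which embryo and yolk sac were treated as independent. Tests are two-sided. Genes are named where they passed a comparison within a tissue, were among its 6 largest differences, among the 12 largest in each direction between tissues, among the largest in differences between tissues' effects, or highest in their family. On simulated arrays of 20794 genes with 200 changed, the embryo MEHP comparison recovered 64% of changes of 0.5 and 96% of changes of 1, with 5 unchanged genes called. The yolk sac MEHP comparison recovered 60% and 93% (10 unchanged called), and the MEHP effect between tissues 34% and 94% (1 unchanged called). Every simulation took each gene's spread from the embryo arrays, so the rates that involve yolk sacs do not reflect the spread of yolk sac arrays. The number of arrays limits the precision. Alternatives were quantile and cyclic loess normalisation, a filter on dim genes, the mean of a gene's probe sets, other sets of arrays, limma's trend and robust options, the nonspecific level as a covariate, and each array left out. Promoters came from RefSeq, matched by symbol. Figures were drawn with matplotlib 3.10.9.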

Additional observations from a re-analysis of the deposited data

Results flagged for a closer look

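Robo2 was singled out because the MEHP effect differed between the tissues by a test of that difference (1.05 ± 0.16, SE, embryo minus yolk sac, adjusted p = 0.0207 by limma). Its effect was 1.05 in embryos and 0.01 in yolk sacs, where its level lay under the nonspecific level in all groups. Without the arrays of high Gapdh 3′ to 5′ ratio the difference was 0.97 (adjusted p = 0.151 by limma).

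Epha3 was singled out because the difference between exposed conceptuses with and without NTD was not the same in both tissues (-1.15 ± 0.16, SE, embryo minus yolk sac, adjusted p = 0.0137 by limma). It was -0.99 in embryos and 0.17 in yolk sacs, where Epha3 too lay under the nonspecific level. Over the mean of its probe sets the difference was -0.59 (adjusted p = 0.134 by limma), and without the arrays of high Gapdh 3′ to 5′ ratio it was -1.08 (0.238).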

How the results depend on the processing

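Named genes gave 456 values under the alternatives, of which 261 kept their direction and side of the threshold, 174 kept their direction but no longer passed, 8 newly passed and 13 reversed. Counts below are guidance genes that passed, out of main counts of 10 (MEHP in embryos without NTD), 1 (NTD among exposed embryos), 5 (exposed embryos with NTD against controls), 1, 0 and 4 (the same 3 in yolk sacs), 52 (tissues), 1 (MEHP effect between tissues) and 1 (NTD difference between tissues). With the nonspecific level as a covariate the 6 comparisons within a tissue gave 0 each, with Sema6b reversed in embryos without NTD (0.0476), while Epha3 stayed at -1.0 for NTD in embryos (adjusted p = 0.0641 by limma). Exposure and that level cannot be told apart. Cyclic loess gave 6 and 3 for the comparisons of exposed embryos without and with NTD with controls. Genes above the median level alone gave 2, 0 and 0 in the 3 embryo comparisons, 31 between tissues and 0 for both differences of effects, with fewer genes tested. This filter, at a mean of 5.72 over the 20 arrays, removed Robo2 (3.85), Slit1 (5.62), Sema3d (5.08) and Epha3 (4.72), among others. They were not tested there. A 0 where Epha3 or Robo2 had been the gene that passed therefore does not speak on that gene. The mean of all probe sets gave 0 for NTD in embryos, for both MEHP comparisons in yolk sacs and for the NTD difference between tissues. The 2 compared groups alone gave 0 for NTD in embryos, 3 for exposed embryos with NTD and 0 for exposed yolk sacs with NTD against controls, with fewer samples. All 20 arrays in 1 fit gave 11 for exposed embryos with NTD and 3, 1 for the first pair of yolk sac comparisons. Quantile normalisation gave 0 for NTD in embryos, and the trend and robust options gave 2 for NTD in yolk sacs. Groups by the sample headings, which mix tissues, gave 43, 0, 0, 0, 34, 0, 6, 46 and 46 in the order above. They reversed Ephb2 (-2.85), Sema3d (-2.89) and Robo2 (-0.54) for MEHP in embryos, Epha3 (2.17) and Ntn4 (0.52) for NTD in embryos, and Sema3d (-0.52) in exposed embryos with NTD. In yolk sacs they reversed Sema3f (0.0758), Robo1 (-1.70 for NTD and -0.24 against controls) and Sema5a (-0.38), and between tissues Robo2 (-1.60) and Epha3 (4.2). Chosen after seeing the data, leaving out the arrays of high Gapdh 3′ to 5′ ratio gave 0 for NTD in embryos, for both MEHP comparisons in yolk sacs and for both differences of effects, with 1 control yolk sac left and differences of 0.97 for Robo2 and -1.08 for Epha3 between tissues. Leaving out the embryo arrays high in visceral endoderm transcripts gave 1, 0 and 3 in the embryo comparisons, with fewer samples. In that list the exposed arrays with NTD then still lay above the other embryo arrays left. With each array left out in turn the counts ranged over 2 to 10, 0 to 1, 3 to 8, 0 to 0, 0 to 0, 0 to 4, 48 to 51, 0 to 2 and 0 to 1. Where no cause is named, the cause was not tested. No paired analysis was possible because the array columns carry no replicate number of the labels. Where a gene was dim, such as Robo2 in controls, the distance to the nonspecific level limits what can be read.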

Other observations

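The single control embryo with NTD and the single control yolk sac with NTD entered no comparison. In that embryo 18 guidance genes lay above the range of the 3 control embryos, 16 below and 35 within, and the largest distance from the control mean was in Sema4a, at 5.15 against a mean of 4.58. Robo2, at 3.78, lay within the control range. In the control yolk sac with NTD 13 guidance genes lay above the control range, 20 below and 36 within. Sema5a was at 5.26 there against a mean of 4.62, and Sema3c at 3.74 against 4.25. Each is 1 array with no replicate. The same counts were not made over all genes, so they show nothing particular to the guidance genes.

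The authors' deposited tables set all MEHP arrays of a tissue against all controls, with both NTD classes pooled. For the probe sets read here, the authors' deposited table for embryos has 5 guidance genes higher and 12 lower at an adjusted p below 0.05, with Robo2 at a log2 difference of 1.06 (adjusted p = 0.000106, the smallest of the 69). The authors' deposited table for yolk sacs has 2 higher and 1 lower. In the authors' deposited tables of NTD status, with both exposures pooled, 0 guidance genes passed in either tissue, and the smallest adjusted p was 0.993 in embryos and 0.529 in yolk sacs.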
